A study of Mus musculus with 14 samples.

Results

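The B-lineage genes described here are Cd79a, Cd79b, Igkc, Fcmr, Siglecg, Ly6d, Spib, Pax5 and Ebf1, followed library by library in innate lymphocytes sorted from mouse bone marrow. They are 9 of the 46078 genes in the count table, found by matching their Ensembl identifiers to mouse symbols, and all 9 were among the 26990 genes that passed the filter on low counts. The set was chosen with its counts in these libraries known, above all the high values in immature natural killer cells of the conditional knockout. Values that involve those cells are therefore given for the 9 genes as a description, with no test.

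Bulk RNA sequencing was done on 14 libraries, each made from 2000 cells sorted from the marrow of C57BL/6 mice aged 8 weeks. Immature natural killer (iNK) cells were sorted as NK1.1+, DX5+ and CD27+ and as CD3-, CD11b- and IL-7Ra-, and immature group 1 innate lymphoid cells (iILC1) as NK1.1+, CD49a+ and IL-7Ra+ and as CD3-. The groups were cKO iNK (n = 4), control iNK (n = 3), cKO iILC1 (n = 4) and control iILC1 (n = 3). Mice of every group carried 1 floxed and 1 knockout allele of Il15 (labelled Il-15-flox/KO), and the conditional knockouts (cKO) also carried Vav-Cre, a recombinase under the Vav promoter, which works in hematopoietic cells. The controls are therefore not wild type, and neither gate names a marker that excludes B cells. Whether each library came from its own mouse is not stated, and p-values cover only the spread among libraries, which may be technical. The study's title concerns the need of group 1 innate lymphoid cells for interleukin 15 from hematopoietic cells.

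Library totals were 6254844 to 12572326 counts in cKO iNK, 6238016 to 8013984 in control iNK, 5478641 to 10308693 in cKO iILC1 and 3512796 to 4933284 in control iILC1. Levels are CPM, the counts scaled to a common library size, after normalization by the trimmed mean of M values (TMM). Il15 itself was at 8.58 to 12.3 CPM in cKO iNK and 8.16 to 11.1 in control iNK, and at 11.2 to 25 CPM in cKO iILC1 and 11.7 to 13.7 in control iILC1. The labels do not say which part of Il15 is removed, so a count over the whole gene does not check the genotype. The IL-7Ra gate was visible in the RNA: Il7r, which encodes IL-7Ra, averaged 22.3 ± 5.6 CPM in cKO iNK, 8.37 ± 2.59 in control iNK, 646 ± 91.3 in cKO iILC1 and 408 ± 61.2 in control iILC1 (SD). Both gates were CD3-, yet Cd3e, which encodes a chain of CD3, averaged 64 ± 20.6 CPM in control iILC1 and 27.5 ± 5.6 in cKO iILC1 (SD). In iNK Cd3e averaged 3.31 ± 1.46 CPM in control and 3.66 ± 2.78 in cKO (SD). The reason was not tested. Ncr1, which encodes the NK receptor NKp46, averaged 856 ± 180 CPM in cKO iNK, 1500 ± 335 in control iNK, 2108 ± 676 in cKO iILC1 and 1717 ± 361 in control iILC1 (SD).

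B cells arise in the bone marrow from lymphoid progenitors under the transcription factors Ebf1 and Pax5, which switch on the genes of the B-cell receptor. That receptor is an immunoglobulin of heavy and light chains held at the surface by the signalling chains CD79a and CD79b, and lectins such as Siglec-G set its threshold. Natural killer cells and innate lymphoid cells are not known to make it, and the 9 genes are best known from the B lineage.

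The promoters of 3 members are printed because these genes had some of the widest differences between cKO and control iNK libraries and stand for a receptor chain, a surface receptor and a transcription factor. The sequences are from RefSeq on build GRCm38.p6 (mm10), cover 250 bases before and 50 after a start site, and are given 5′ to 3′ on the strand of the gene. Of the 9 members, 6 matched an entry, with 8 promoters in all; Cd79b, Ly6d and Igkc did not match. Capitals mark the E-box letters CAGGTG. The Cd79a window is chr7:24897247-24897546 (plus strand), the Fcmr window chr1:130865527-130865826 (plus strand) and the Spib window chr7:44532022-44532321 (minus strand).
Cd79a: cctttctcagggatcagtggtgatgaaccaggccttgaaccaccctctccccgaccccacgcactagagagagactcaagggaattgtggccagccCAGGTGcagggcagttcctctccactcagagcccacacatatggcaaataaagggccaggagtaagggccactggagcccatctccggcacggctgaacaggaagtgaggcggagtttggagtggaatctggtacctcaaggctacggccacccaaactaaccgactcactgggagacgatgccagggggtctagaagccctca
Fcmr: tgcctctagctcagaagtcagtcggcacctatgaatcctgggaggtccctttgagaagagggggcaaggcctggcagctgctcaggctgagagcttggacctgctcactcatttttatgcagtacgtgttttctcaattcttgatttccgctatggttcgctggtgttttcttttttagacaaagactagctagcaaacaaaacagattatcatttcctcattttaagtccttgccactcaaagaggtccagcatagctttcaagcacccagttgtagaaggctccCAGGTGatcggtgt
Spib: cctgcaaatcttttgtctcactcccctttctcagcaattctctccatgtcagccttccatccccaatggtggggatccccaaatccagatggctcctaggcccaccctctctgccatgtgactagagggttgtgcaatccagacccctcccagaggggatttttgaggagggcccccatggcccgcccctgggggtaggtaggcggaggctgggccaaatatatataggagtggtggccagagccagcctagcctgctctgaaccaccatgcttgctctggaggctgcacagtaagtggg
The E-box letters begin at base -154 from the start site of Cd79a and at base 36 of Fcmr. They occur on either strand in 20.2% of 32851 mouse promoters of the same length, and were added to the search after the sequences had been read. The letters TCCCNNGGG for EBF1 (6.56% of those promoters), ATGCAAAT for the octamer (1.74%) and GAGGAAGT for PU.1 and SPI-B (3.2%) were searched on both strands and are not in the 8 windows of the members. No motif overlaps another in these windows. A match or its absence describes these letters only.

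The 7 genes for receptor parts, surface receptors and Spib were high in every cKO iNK library and low in the other 3 groups, while Pax5 and Ebf1 had smaller differences. In cKO over control iNK, the log2 fold changes of the 9 genes had a median of 3.15, beside 0.06 over all genes tested. For 8 of the 9, every cKO iNK library lay above every control iNK library, beside 4.09% of all genes tested. In bulk RNA, more cells of a type and more RNA per cell cannot be told apart.

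**Figure D1:**
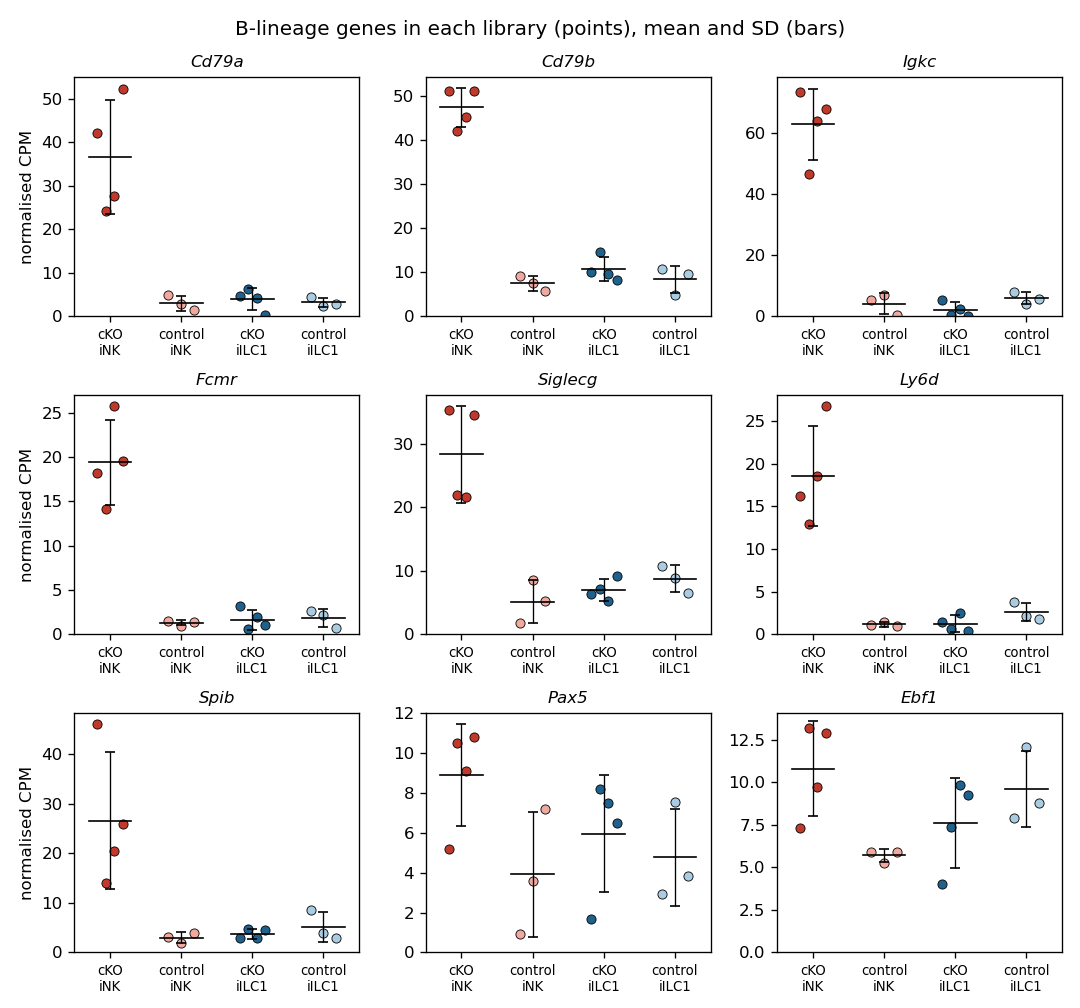
Normalised CPM of the 9 genes (vertical axes, each with its own range) in the 4 groups, with 1 point per library, the mean as the long bar and the SD as whiskers. In 7 panels all 4 cKO iNK points lie above the other 10 points. In the panels of Pax5 and Ebf1 the cKO iNK points overlap with those of cKO iILC1 and control iILC1.

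Cd79a, which signals inside the cell for the B-cell receptor (chromosome 7, 24897381 to 24902197, mm10), had 42.1, 24.3, 27.7 and 52.3 CPM in the cKO iNK libraries, against 4.84, 2.78 and 1.44 CPM in the control iNK libraries. It had 4.6, 6.37, 4.29 and 0.381 CPM in cKO iILC1, against 4.39, 2.39 and 2.93 CPM in control iILC1. All cKO iNK libraries were above all others, and the other 3 groups overlapped. The log2 fold change of cKO over control iNK was 3.59 (SE 0.498), a 12-fold higher level.

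Cd79b, its partner chain (chromosome 11, 106311341 to 106314762), had 51.2, 42.2, 45.4 and 51.3 CPM in cKO iNK, against 9.21, 7.53 and 5.76 CPM in control iNK. The cKO iILC1 libraries had 10.2, 14.6, 9.7 and 8.26 CPM, against 10.8, 4.97 and 9.53 CPM in control iILC1. The 4 cKO iNK libraries were again the highest and lay close together, and the other 3 groups overlapped. The log2 fold change in iNK was 2.66 (SE 0.287).

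Igkc, the constant region of the kappa light chain (chromosome 6, 70726435 to 70726966, a single exon), had the highest level of the 9 per length of exon in cKO iNK. It had 73.6, 46.6, 63.9 and 68 CPM in cKO iNK, against 5.31, 6.88 and 0.48 CPM in control iNK. In cKO iILC1 it had 5.45, 0.367, 2.54 and 0.254 CPM, against 7.9, 4.17 and 5.86 CPM in control iILC1. The cKO iNK libraries did not overlap any other group, and the spread inside the low groups came from 2 to 45 counts a library. In iNK the log2 fold change of cKO over control was 3.9 (SE 0.562).

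Fcmr, the Fc receptor for IgM (chromosome 1, 130865669 to 130880791), had 18.2, 14.1, 25.7 and 19.5 CPM in cKO iNK, against 1.56, 0.982 and 1.44 CPM in control iNK. Among iILC1, the cKO libraries had 3.15, 0.612, 1.91 and 1.02 CPM, against 2.63, 2.19 and 0.733 CPM in control iILC1. Every cKO iNK library stood above the rest, and the 3 low groups overlapped. In iNK the log2 fold change of cKO over control was 3.85 (SE 0.479).

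Siglecg, the inhibitory sialic-acid-binding lectin Siglec-G (chromosome 7, 43408204 to 43418358), had 35.3, 22, 21.6 and 34.6 CPM in cKO iNK, against 1.72, 8.51 and 5.28 CPM in control iNK. In cKO iILC1 it had 6.3, 7.22, 5.25 and 9.28 CPM, against 10.8, 8.94 and 6.59 CPM in control iILC1. The order was the same as for the receptor chains, with cKO iNK alone at the top. The iNK difference was, on the log2 scale, 2.46 (SE 0.373).

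Ly6d, a surface protein of early committed B-lineage cells that plasmacytoid dendritic cells can also carry (chromosome 15, 74762056 to 74763620), had the widest iNK difference. It had 16.2, 12.9, 18.5 and 26.7 CPM in cKO iNK, against 1.09, 1.47 and 0.96 CPM in control iNK. The cKO iILC1 libraries had 1.45, 0.612, 2.54 and 0.381 CPM, against 3.8, 2.19 and 1.83 CPM in control iILC1. The cKO iNK libraries were the highest, and control iILC1 lay above control iNK without overlap. The log2 fold change in iNK was 3.97 (SE 0.49), a 15.6-fold higher level.

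Spib, an Ets-family transcription factor of B cells and plasmacytoid dendritic cells (chromosome 7, 44525995 to 44532071), had 46, 13.9, 20.5 and 25.8 CPM in cKO iNK, against 3.12, 1.8 and 4 CPM in control iNK. In cKO iILC1 it had 2.91, 4.65, 2.86 and 4.45 CPM, against 8.48, 3.98 and 2.93 CPM in control iILC1. Its cKO iNK libraries varied most among the members, with a coefficient of variation of 52.2%, yet the lowest of them was above all other libraries. The log2 fold change in iNK was 3.15 (SE 0.426).

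Pax5, the factor that keeps cells committed to the B lineage (chromosome 4, 44524757 to 44710487), had 5.2, 10.5, 9.1 and 10.8 CPM in cKO iNK, against 0.937, 3.6 and 7.2 CPM in control iNK. Among iILC1, the cKO libraries had 1.7, 8.2, 7.48 and 6.48 CPM, against 2.92, 7.55 and 3.85 CPM in control iILC1. All 4 groups overlapped, and Pax5 was the only member whose iNK groups did. As a log2 fold change the iNK difference was 1.19 (SE 0.504). Its exons share bases with Gm12462 and 5730488B01Rik on the opposite strand, and the library kits do not mark strand, so reads of these genes cannot be told apart there.

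Ebf1, the factor that starts the B-cell program and that some stromal cells also express (chromosome 11, 44617317 to 45008091), had 7.34, 13.2, 9.75 and 12.9 CPM in cKO iNK, against 5.93, 5.24 and 5.92 CPM in control iNK. In cKO iILC1 it had 4, 7.35, 9.86 and 9.28 CPM, against 7.9, 12.1 and 8.79 CPM in control iILC1. Here cKO iNK overlapped with both iILC1 groups, and control iNK was below cKO iNK and control iILC1. The iNK difference was, on the log2 scale, 0.92 (SE 0.337). An unnamed gene, ENSMUSG00000106952, shares exon bases with Ebf1 on the same strand.

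Over all 14 libraries, 7 of the 9 genes had every cKO iNK library above the other 10 libraries, which held for 135 of the genes tested, or 0.500%. Pax5 and Ebf1 were the exceptions. Over the 15 alternatives tried, which include leaving out each iNK library, the log2 fold change in iNK lay between 2.04 and 4.6 for those 7 genes and between 0.73 and 1.99 for Pax5 and Ebf1. The summed level of the 9 genes was 199.7 to 301.9 CPM in cKO iNK, 32.47 to 38.8 CPM in control iNK, 39.73 to 49.96 CPM in cKO iILC1 and 43.05 to 59.67 CPM in control iILC1.

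Levels were next set per kilobase of exon, so that genes can be compared with each other. In cKO iNK the mean levels in order were 118 CPM per kb for Igkc, 33.2 for Cd79b, 25.1 for Cd79a, 25 for Ly6d, 11.2 for Fcmr, 9.35 for Spib, 5.91 for Siglecg, 1.11 for Ebf1 and 1.01 for Pax5. Igkc led by more than its SD of 21.9 CPM per kb. Of neighbours in this order, Cd79b and Cd79a (SDs 3.16 and 8.93) and Cd79a and Ly6d (8.93 and 7.94) did not differ beyond the larger SD. The same held for Fcmr and Spib (2.77 and 4.89), Spib and Siglecg (4.89 and 1.58), and Ebf1 and Pax5 (0.283 and 0.292). The comparison level was that of 1669 olfactory and vomeronasal receptor genes, which blood cells are not known to use and which nevertheless drew 1621 to 3539 CPM a library in sum. Their 95th percentile was 4.58 CPM per kb in cKO iNK, 3.65 in control iNK, 4.92 in cKO iILC1 and 4.87 in control iILC1. In cKO iNK 7 of 9 members were above it, in control iNK 2 (Cd79b and Igkc), in cKO iILC1 1 (Cd79b) and in control iILC1 2 (Cd79b and Igkc). In cKO iNK the level of Pax5 was above that of 58.1% and the level of Ebf1 above that of 60.2% of the receptor genes, so neither was separate from genes that these cells are not known to use. By group mean, Cd79b and Igkc were the members that stood out in both control groups, but not in every library. Igkc was at 0.902 CPM per kb (3 counts) in control iNK replicate 3, below that group's 95th percentile. Cd79b was at 3.47 in control iILC1 replicate 2, also below the percentile of its group.

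**Figure D2:**
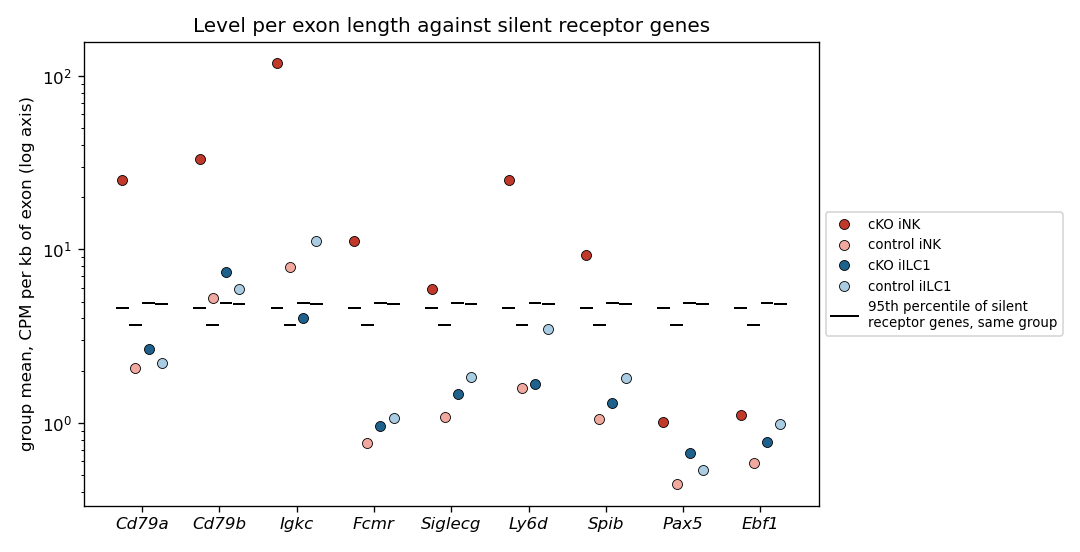
Group mean of each member per kb of exon (CPM per kb, log axis), with short bars at the 95th percentile of the 1669 silent receptor genes in the same group. The cKO iNK points of 7 members lie above their bar, those of Pax5 and Ebf1 lie below it.

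The proportions between members also differed between the groups. Counts of Cd79a per count of Cd79b were 0.821, 0.576, 0.61 and 1.02 in the cKO iNK libraries, against 0.525, 0.37 and 0.25 in control iNK. Counts of Igkc per count of Cd79b were 1.44, 1.11, 1.41 and 1.33 in cKO iNK, against 0.576, 0.913 and 0.0833 in control iNK. Both ratios were higher in every cKO iNK library than in any other library. Counts of Ebf1 per count of Cd79b went the other way, with 0.143, 0.312, 0.215 and 0.251 in cKO iNK against 0.644, 0.696 and 1.03 in control iNK. Across the 14 libraries, which share their preparation and differ in depth, the log2 CPM of each of the 7 genes had a Pearson r between 0.802 (Igkc) and 0.946 (Ly6d) with the mean profile of the other members. For Ebf1 r was 0.528 and for Pax5 0.48. The genes were chosen with their high cKO iNK values known, so these r values partly follow from that choice and are a description.

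In iILC1 the conditional knockout and the control showed no difference past the test's threshold in any of the 9 genes. The genes were chosen above all for their cKO iNK values, but their iILC1 counts were also known. A test in iILC1 is therefore not independent of the choice. By edgeR's quasi-likelihood test, adjusted for all tested genes after Benjamini and Hochberg, 0 of 9 members were called, with adjusted p between 0.979 and 0.992. Among all genes 0.0222% were called higher and 0.0259% lower. At an unadjusted p under 0.05 there were 2 members, Igkc and Ly6d, beside 1221 genes in all. Igkc had a log2 fold change of -1.44 (SE 0.593, unadjusted p = 0.0217) and Ly6d of -1.05 (SE 0.501, unadjusted p = 0.0448), from edgeR's test. The median over the members was -0.31, beside 0.01 over all genes tested. No member had groups that did not overlap, where 2.66% of all genes were higher and 2.82% lower without overlap. The SEs ran from 0.284 (Cd79b) to 0.593 (Igkc). DESeq2 gave 6 of the 9 an adjusted p, between 0.91 and 0.95, and called 0.

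**Figure D3:**
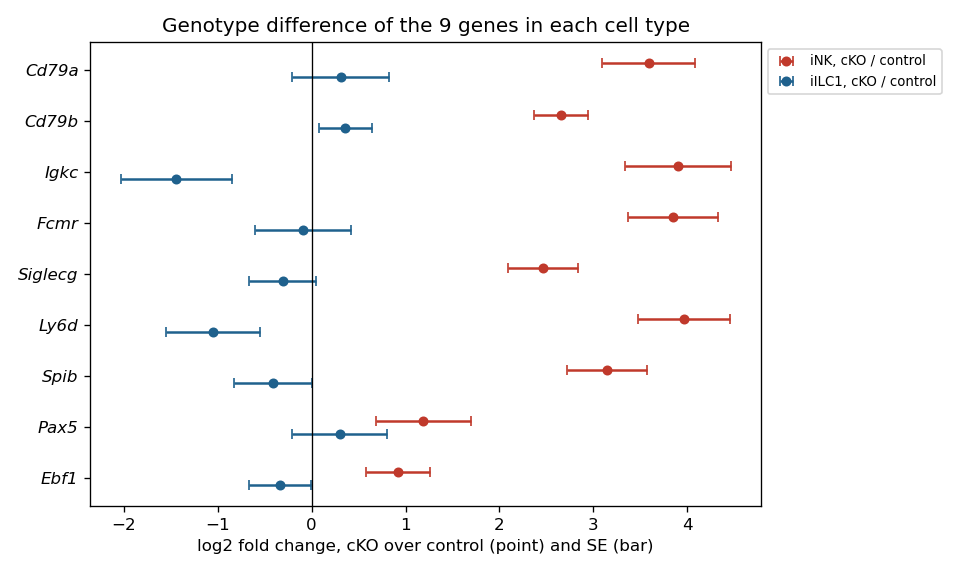
Log2 fold change of cKO over control for each member in iNK (red) and iILC1 (blue), with the SE as bars. The iNK points of 7 members lie at or above 2.46, and the iILC1 points lie between -1.44 and 0.36.

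Within the conditional knockout, all 9 genes were lower in iILC1 than in iNK, with log2 fold changes from -0.51 (Ebf1) to -4.86 (Igkc) and a median of -2.82. For 7 of the 9 every cKO iILC1 library was below every cKO iNK library, beside 3.08% of all genes. Within controls the log2 fold changes of iILC1 over iNK ran from 0.06 (Cd79a) to 1.1 (Ly6d), with a median of 0.48 beside 0.16 over all genes. Cd79a, Cd79b and Igkc turned negative without control iNK replicate 3 (-0.29, -0.01 and -0.06), Cd79a and Cd79b also without control iILC1 replicate 1 (-0.2 and -0.06), and Pax5 without control iNK replicate 1 (-0.17) or control iILC1 replicate 2 (-0.19) and with the summed level of silent receptor genes as a covariate (-0.72). In this comparison 2 of the 9, Ly6d and Ebf1, were higher without overlap, beside 12.0% of all genes. The genotype effect in iILC1 minus that in iNK was negative for all 9, from -0.9 (Pax5) to -5.34 (Igkc). These comparisons share libraries with the one the genes were chosen on.

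Some other genes of the B-cell receptor and its coreceptors were also higher in cKO iNK. Their list, like the other gene lists, was chosen with earlier results of these data known. Its tests in comparisons that use iNK libraries therefore describe the listed genes and give no independent support. Of 12 such genes 5 were called higher in cKO than in control iNK and 0 lower (edgeR, adjusted p under 0.05), where 0.156% of all genes were called higher and 0.252% lower. Their median log2 fold change was 1.79. Ighd, the heavy chain of IgD on mature B cells, had 71.6, 34.7, 72.9 and 73.1 CPM in cKO iNK, against 22.3, 15.7 and 7.2 CPM in control iNK (log2 fold change 2.06, SE 0.335, edgeR adjusted p = 0.00113). Fcer2a, the low-affinity IgE receptor CD23 of mature B cells, averaged 15.9 ± 3.61 CPM in cKO iNK and 2.2 ± 1.25 CPM in control iNK (SD), with a log2 fold change of 2.85 (edgeR adjusted p = 0.00149). Iglc3, a lambda light-chain constant region, averaged 4.87 ± 1.54 CPM in cKO iNK and 0.423 ± 0.236 CPM in control iNK (SD), with a log2 fold change of 3.47 (edgeR adjusted p = 0.0287). Its copies are near identical, so reads may be split among them. Ms4a1, the surface protein CD20, averaged 48.9 ± 3.72 CPM in cKO iNK and 17.2 ± 6.72 CPM in control iNK (SD), with a log2 fold change of 1.51 (edgeR adjusted p = 0.00411).

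Ighm, the heavy chain of IgM, was high in all 4 groups and was not called. It averaged 634 ± 137 CPM in cKO iNK, 458 ± 115 in control iNK, 442 ± 126 in cKO iILC1 and 310 ± 78.4 in control iILC1 (SD), with a log2 fold change in iNK of 0.47 (edgeR adjusted p = 0.689). With the summed receptor-gene level as a covariate its adjusted p was 0.00574 (edgeR). Of the 12 genes, 8 had every cKO iNK library above the other 10 libraries, beside 0.500% of all genes tested. The count of 5 fell to 2 without control iNK replicate 1 or replicate 2 and to 3 when cKO iNK replicate 1 or the third control iNK library was left out, and ranged up to 7. Leaving out control iNK replicate 1 or 2 ended the Ms4a1 call (edgeR adjusted p = 0.0595 and 0.0505). Iglc3 lost its call without any 1 of the 3 control iNK libraries or of cKO iNK replicates 1, 3 and 4 (edgeR adjusted p from 0.0612 to 0.218). Ighd and Fcer2a kept theirs in every alternative, with edgeR or DESeq2 adjusted p up to 0.0147 and 0.0205.

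In iILC1, 0 of the 12 were called by edgeR, 0 had an unadjusted p under 0.05, and DESeq2 called 0. Within the conditional knockout 9 of 12 were called lower in iILC1 than in iNK, where 1.74% of all genes were called higher and 1.68% lower. With at least 5 CPM in 3 libraries required, 5 were called lower. The widest were Iglc3 with a log2 fold change of -4.33, Iglc1 with -2.92 and Iglc2 with -2.8 (edgeR adjusted p = 0.00015, 0.0151 and 0.000989). The Iglc1 call disappeared without cKO iNK replicate 4 (edgeR adjusted p = 0.409), in which Iglc1 stood at 18.9 CPM beside 2.08 to 7.49 in the other cKO iNK libraries, without cKO iILC1 replicate 2 (0.0973), and with the receptor-gene covariate (0.063), and DESeq2 did not call it (adjusted p = 0.132). Within controls 0 of 12 were called higher in iILC1 and 1 lower, Cd72, a coreceptor that NK cells also express, where 0.911% of all genes were called higher and 3.00% lower. Leaving out control iNK replicate 1 or 2, or control iILC1 replicate 2 or 3, ended the Cd72 call (edgeR adjusted p from 0.0733 to 0.118), as did the receptor-gene covariate (0.182).

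Among genes of earlier and of later B-cell stages few passed the test. Of 9 tested genes of pro-B and pre-B cells, 2 were called higher in cKO iNK, where 0.156% of all genes were called higher. These were Cd24a, a surface glycoprotein of many immature cells, at 24.7 ± 18.4 CPM in cKO iNK and 3.82 ± 1.32 CPM in control iNK (SD; log2 fold change 2.7, edgeR adjusted p = 0.0228), and Il7r (log2 fold change 1.42, edgeR adjusted p = 0.00667). Vpreb3, a B-lineage protein related to the surrogate light chain, had 5.81, 4.71, 5.46 and 7.07 CPM in cKO iNK, against 1.25, 1.15 and 1.44 CPM in control iNK, without overlap (log2 fold change 2.16, SE 0.507), and just missed the threshold (edgeR adjusted p = 0.0504). Other genes of the pre-B receptor and of V(D)J recombination did not pass either: Vpreb1, a surrogate light chain, had a log2 fold change of 0.77 (edgeR adjusted p = 0.788), Igll1, its partner, 0.83 (0.643) and Rag1, of the recombinase, 0.37 (0.801). Cd24a lost its call without control iNK replicate 2 or 3 or cKO iNK replicate 4 (edgeR adjusted p from 0.121 to 0.19), and Il7r without control iNK replicate 1 or 2 (0.0687 and 0.0637). Of 11 plasma-cell genes 0 were called in iNK by edgeR or DESeq2. At an unadjusted p under 0.05 in edgeR there were 2, beside 2125 of all 26990 genes tested. Jchain, the joining chain of secreted IgM and IgA, stood at 2.45 ± 0.488 CPM in cKO iNK and 2.52 ± 0.835 CPM in control iNK (SD).

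Of 10 genes of B-cell receptor signalling 0 were called in iNK by edgeR and DESeq2 called 1, with a median log2 fold change of 0.38. In edgeR 4 had an unadjusted p under 0.05, beside 2125 of all 26990 genes tested. Of 11 B-lineage transcription factors 2 were called higher in cKO iNK, where 0.156% of all genes were called higher. Pou2af1, a coactivator of octamer factors, averaged 18.3 ± 5.65 CPM in cKO iNK and 6 ± 2.17 CPM in control iNK (SD; log2 fold change 1.61, edgeR adjusted p = 0.0354). Irf4, a factor of activated lymphocytes and plasma cells, averaged 9.18 ± 1.09 CPM in cKO iNK and 2.56 ± 0.977 CPM in control iNK (SD; log2 fold change 1.83, edgeR adjusted p = 0.0134). Of 9 genes of mature B-cell survival and homing 1 was called higher, beside the same 0.156% of all genes. It was the chemokine receptor Ccr7, at 30.3 ± 9.28 CPM in cKO iNK and 11.4 ± 1.86 CPM in control iNK (SD; log2 fold change 1.41, edgeR adjusted p = 0.0228). Ccr7 lost its call without any 1 of the iNK libraries other than cKO iNK replicate 2 (edgeR adjusted p from 0.0595 to 0.121). Pou2af1 lost its call without control iNK replicate 1 or 3 or cKO iNK replicate 1, 3 or 4 (from 0.0719 to 0.239), and Irf4 without control iNK replicate 1 or 2 or cKO iNK replicate 1 (from 0.0504 to 0.121).

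Of 10 MHC class II genes, with which B cells and dendritic cells present antigen, 6 were called higher in cKO iNK than in control iNK and 4 in cKO iILC1 than in control iILC1. Among all genes 0.156% were called higher in iNK and 0.0222% in iILC1. H2-DMa, a chain of the peptide-loading factor H2-M, had a log2 fold change of -0.16 in iNK (edgeR adjusted p = 0.898). Cd74, the invariant chain, had 192, 144, 189 and 205 CPM in cKO iNK, against 13, 18 and 11.7 CPM in control iNK (log2 fold change 3.68, SE 0.277, edgeR adjusted p = 3.37e-09). It had 372, 342, 348 and 243 CPM in cKO iILC1, against 154, 114 and 79.1 CPM in control iILC1 (log2 fold change 1.5, SE 0.244, edgeR adjusted p = 0.00656). Cd74 was thus higher in every cKO iILC1 library than in every cKO iNK library (log2 fold change 0.84, edgeR adjusted p = 0.0214), a comparison in which all 9 members had negative log2 fold changes and 7 were lower without overlap. The call between cell types was gone when cKO iNK replicate 1, cKO iNK replicate 3 or cKO iILC1 replicate 3 was left out (edgeR adjusted p from 0.0508 to 0.0584). In iILC1 the count of 4 fell to 0 without control iILC1 replicate 3, the lowest for Cd74, and to 2 when control iILC1 replicate 1, control iILC1 replicate 2 or cKO iILC1 replicate 3 was left out.

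**Figure D4:**
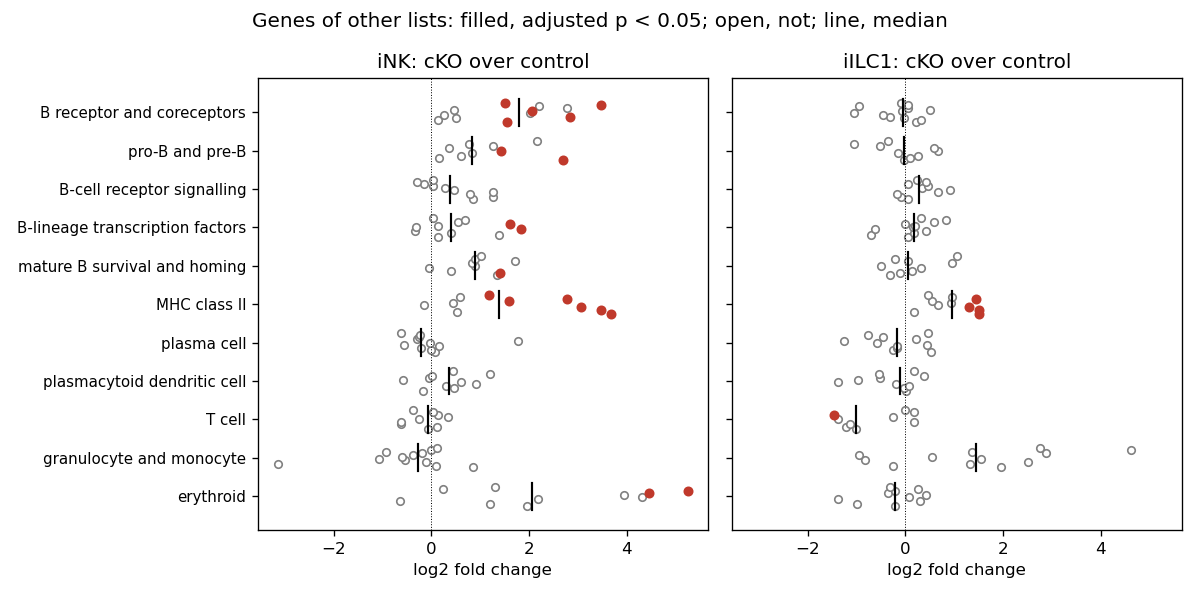
Log2 fold change of cKO over control for the genes of 11 lists in iNK (left) and iILC1 (right), 1 point per gene, filled where edgeR's adjusted p was under 0.05, with the list's median as a vertical line. In iNK the filled points are in the B-cell, MHC class II and erythroid lists, and in iILC1 in the MHC class II and T-cell lists.

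The genotype effect in iILC1 minus that in iNK was also tested for genes outside the 9, in lists chosen with earlier results known. Of the 12 receptor and coreceptor genes 0 were called by edgeR, where 0.0556% of all genes were called lower. At an unadjusted p under 0.05 in edgeR there were 8, beside 1905 of all 26990 genes tested, and DESeq2 called 3. The edgeR count was 4 with no filter on low counts, 3 with the replicate block, and 1 with at least 5 CPM in 3 libraries, with the receptor-gene covariate, or with any 1 cKO iILC1 library, cKO iNK replicate 2, or either the first or the third control iNK library left out. Fcer2a had a difference of -3.17 and did not pass (edgeR adjusted p = 0.056). Cd74 was called, with -2.18 (SE 0.344, edgeR adjusted p = 0.00318).

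Markers of other cell types that a sort could hold were measured in the same libraries. Of 10 genes of plasmacytoid dendritic cells, which also express Spib and Ly6d, 0 were called in iNK by edgeR or DESeq2. In edgeR 4 had an unadjusted p under 0.05, beside 2125 of all 26990 genes tested. Siglech, a receptor that marks these cells, averaged 7.32 ± 5.64 CPM in cKO iNK and 3.2 ± 1.82 CPM in control iNK (SD; log2 fold change 1.21, edgeR adjusted p = 0.469). The summed level of those 10 genes was 261.2 to 349 CPM in cKO iNK and 256.2 to 290.8 CPM in control iNK, and their part in the levels of Spib and Ly6d was not tested. Of 7 tested genes of conventional dendritic cells, 9 of T cells, 12 of granulocytes and monocytes and 10 of stroma and endothelium, 0 were called in iNK by edgeR or DESeq2. At an unadjusted p under 0.05 in edgeR there were 0, 1, 3 and 0 in that order, beside the same 2125 of all genes. Cd3e, a chain of the T-cell receptor complex, averaged 3.66 ± 2.78 CPM in cKO iNK and 3.31 ± 1.46 CPM in control iNK (SD). No gene of these lists was at 0 in every library of a group.

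Of 10 erythroid genes 2 were called higher in cKO iNK, where 0.156% of all genes were called higher. They were the beta globins Hbb-bs and Hbb-bt, which are near-identical copies. Hbb-bs had 156, 31.1, 126 and 263 CPM in cKO iNK, against 15.9, 2.13 and 1.28 CPM in control iNK (log2 fold change 4.47, edgeR adjusted p = 0.0354). Hbb-bt had a log2 fold change of 5.25 (edgeR adjusted p = 0.0175). Both calls were lost without control iNK replicate 2 or 3 or cKO iNK replicate 4 (edgeR adjusted p from 0.0909 to 0.282), and that of Hbb-bs also without cKO iNK replicate 1 or 3 (0.0766 and 0.0545). DESeq2 did not call Hbb-bt (adjusted p = 0.062). At an unadjusted p under 0.05 in edgeR there were 8 of the 10, beside 2125 of all 26990 genes tested. DESeq2 called 3, and the median log2 fold change of the list was 2.07. Hba-a1, an alpha globin, had 152, 28.1, 118 and 211 CPM in cKO iNK, against 18, 0.327 and 0.8 CPM in control iNK (log2 fold change 4.31, SE 1.06) and did not pass (edgeR adjusted p = 0.0687), although the groups did not overlap. The summed erythroid level was 280 to 888.8 CPM in cKO iNK and 356.5 to 425.9 CPM in control iNK, so these groups overlapped. Most of the control sum was Car2, a carbonic anhydrase, at 231 ± 34 CPM in cKO iNK and 362 ± 22.8 CPM in control iNK (SD; log2 fold change -0.65, edgeR adjusted p = 0.305). The part of these cells in the result was not tested. Of 12 genes of NK and ILC1 identity, 1 was called in iNK, the granzyme gene Gzma, at 626 ± 95.8 CPM in cKO iNK and 1691 ± 334 CPM in control iNK (SD; log2 fold change -1.43, edgeR adjusted p = 0.00141). Among all genes 0.252% were called lower. DESeq2 called 3 of the 12, and in edgeR 3 had an unadjusted p under 0.05, beside the same 2125 of all genes. Without overlap 3 of the 12 were lower, beside 4.75% of all genes.

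The variable segments of the heavy-chain and kappa loci overlapped between cKO iNK and each other group. The summed level of the Igkv segments was 141, 194, 182 and 157 CPM in cKO iNK, 91.2, 85.3 and 152 CPM in control iNK, 114, 168, 161 and 170 CPM in cKO iILC1 and 156, 178 and 164 CPM in control iILC1. The cKO iNK range overlapped with the other 3 ranges, and Igkv4-92 had the most counts of any kappa segment in each of the 14 libraries, with at most 9.88% of them. Each Igkv sum covers 160 segments and includes background. In control iNK the silent receptor genes summed to 1621, 1857 and 2912 CPM in the same order, with the third library highest in both. Background was not removed, so the overlap does not decide whether kappa segments rose with Igkc. The summed Ighv level was 127 to 174 CPM in cKO iNK and 98.7 to 181 CPM in control iNK. The Iglv sum was 20 CPM in cKO iNK replicate 4, in which Iglv1 held 159 of 235 counts, and 8.57 CPM in replicate 1, where Iglv1 held 43 of 56. In the other 12 libraries it was 2.03 to 6.12 CPM and Iglv2 led. Each cKO iNK library, with 8.57, 4.85, 5.2 and 20 CPM, was above the control iNK libraries, with 2.03, 3.44 and 4.16 CPM, and above the control iILC1 libraries, with 4.39, 3.58 and 3.66 CPM, and overlapped with cKO iILC1, with 2.54, 6.12, 4.77 and 4.32 CPM.

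The genes whose log2 CPM followed the mean member profile most closely over the 14 libraries, among 17807 candidates, were Id3 (r = 0.927), Spata46 (0.91), Nrp2 (0.903), Fcer2a (0.89), Scd1 (0.888) and Rnf122 (0.884). Immunoglobulin heavy-chain and light-chain genes, T-cell receptor genes and genes without a symbol were not candidates. Nor were genes named Gm with a number or ending in Rik. The named genes were ranked by that likeness, so their levels are a description. Id3, an inhibitor of E-protein transcription factors, averaged 21.6 ± 6.8 CPM in cKO iNK, 4.35 ± 1.65 in control iNK, 4.1 ± 0.598 in cKO iILC1 and 4.6 ± 1.34 in control iILC1 (SD). Its lowest cKO iNK library, at 14 CPM, was above all other libraries.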

How the data were processed

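The authors sorted 2000 cells per sample, made cDNA with the SMART-Seq v4 kit and libraries with Nextera XT, per the labels' protocols; neither kit marks strand. The deposited table holds raw counts per Ensembl gene with exon length, per the file headers. The tools listed per the submitters' processing notes are Trimmomatic 0.33 (a read trimmer), HISAT2 2.1.0 (an aligner) and featureCounts from Subread 1.6.5 (a read counter), with build mm10. Which annotation was used, whether counting used strand and how multi-mapping reads were treated is not given in the sources used here. Of 46078 identifiers 45143 (97.97%) matched a symbol.

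From these counts, filterByExpr (minimum count 10, minimum total 15) kept 26990 genes. edgeR 4.0.16 in R 4.3.3 fitted 1 mean per group over all 14 libraries (10 residual degrees of freedom, common biological coefficient of variation 30%) with TMM normalization, a two-sided quasi-likelihood F test and Benjamini-Hochberg adjustment, called under 0.05. The fit was tested on simulated data. CPM are normalised, and log2 CPM use a prior count of 2. DESeq2 1.42.0, DESeq2's size factors, other filters, a replicate block, a background covariate, fits of only the groups compared and leaving out each library were alternatives. Chi-square per degree of freedom between libraries of 1 group was 4.45 to 23.4, so no library repeats another.

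The members and gene lists were chosen with earlier results of these data known. Named besides the 9 members are up to 3 genes per list and comparison with the largest change among those called, 9 defining markers, and the 6 genes most like the members (mean of at least 1 CPM, antigen receptor genes left out). Vpreb3, H2-DMa, Hba-a1, Car2 and Il15 are also named, outside that rule. Totals limit precision: in the low groups members had as few as 2 counts a library. 1 gene of the B-cell receptor and coreceptor list is not reported here and was left out of its counts.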

Additional observations from a re-analysis of the deposited data

Results flagged for a closer look

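Among the 9 members and the 9 defining markers, 36 groups of 4 libraries were searched for a library far from the others, and 1 was found; chance alone gives about 1 in 20 groups. Ms4a1, which encodes CD20, was at 54.5 CPM in cKO iNK replicate 3, against 46.6 to 47.3 CPM in the other cKO iNK libraries. The gap is 0.914 of the group's range, past Dixon's critical value, and all 4 are above the control iNK libraries.

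For 4 listed genes outside the members, the genotype effect in iILC1 differed from that in iNK. The difference itself was tested (edgeR, adjusted over all genes tested), and 21 genes were called in all. The lists were chosen with earlier results of these data known, so the 4 calls give no independent support. The effect in iILC1 minus that in iNK was -2.47 on the log2 scale for Irf4 (adjusted p = 0.0448), -2.18 for Cd74 (0.00318), -1.97 for H2-Aa (0.039) and -1.75 for H2-Ab1 (0.0431), from edgeR. Cd74 kept the call in every alternative, with adjusted p up to 0.0215 over edgeR and DESeq2. The calls of Irf4, H2-Aa and H2-Ab1 were lost with DESeq2's size factors in edgeR (0.0545, 0.0556 and 0.0556) and without several single libraries, where the largest adjusted p were 0.222 for Irf4 (without control iNK replicate 2), 0.196 for H2-Aa (without control iILC1 replicate 2) and 0.226 for H2-Ab1 (without control iNK replicate 1).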

How the results depend on the processing

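In iNK the 9 members kept a positive difference in all 15 alternatives, and in iILC1 no member was called in any of them. The 9 were chosen with their high cKO iNK values known, so the kept sign in iNK is a description and gives no independent support. The counts over all genes moved. In iNK 110 genes were called, with 290 by DESeq2, 191 with no filter, 210 with at least 5 CPM in 3 libraries, 354 with the background covariate (the summed level of silent receptor genes) and 220 from the iNK groups alone; leaving out 1 library gave 63 (cKO iNK replicate 3) to 87. In iILC1 13 were called, with 42 by DESeq2, 47 with no filter, 30 with the 5 CPM filter and 53 with the covariate; leaving out 1 library gave 4 (control iILC1 replicate 3) to 22. Between cell types in control 1056 were called, with 2203 by DESeq2, 1593 with the 5 CPM filter and 1696 from these groups alone, and 394 (without control iILC1 replicate 2) to 1701 without 1 library. Between cell types in cKO 923 were called, and 1633 with the covariate. For the difference of the genotype effects 21 were called, with 38 by DESeq2, 56 with no filter and 32 with the covariate, and 10 (without control iILC1 replicate 3) to 33 without 1 library.

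Whether the replicate numbers pair the libraries could not be decided from these data, with only 3 or 4 same-numbered pairs per comparison. Between genotypes, r of the deviations of same-numbered libraries was -0.02 to 0.073 in iNK and 0.016 to 0.354 in iILC1. Between cell types, where libraries could share a mouse, it was -0.02 to 0.242 in control and -0.092 to 0.139 in cKO. For differently numbered libraries it was -0.3 to 0.228 in control and -0.44 to 0.32 in cKO. In none of these comparisons was every same-numbered r over 0.1. With the replicate block 175 genes were called in iNK, 30 in iILC1, 2212 between cell types in control and 40 for the difference of effects. Jchain in iNK was 0.03 with the block.

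DESeq2 moved the share of calls that were higher to 24.5% from 38.2% in iNK, to 57.1% from 46.2% in iILC1 and to 47.4% from 28.6% for the difference of effects. With no filter it was 66% in iILC1 and 46.4% for the difference of effects, and with the covariate 44.3%, from 23.3%, between cell types in control. Without cKO iNK replicate 2 it was 55.2% in iNK, a majority.

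Signs turned only where no call was made. Leaving out 1 library, the iILC1 log2 fold changes ran from -0.07 to 0.66 for Cd79a (negative without cKO iILC1 replicate 2), -0.63 to 0.22 for Fcmr, -0.7 to 0.13 for Spib (positive without control iILC1 replicate 1), -0.35 to 0.09 for Ms4a1 and -0.45 to 0.25 for Igll1. In iNK they ran from -0.27 to 0.16 for Jchain and -0.37 to 0.54 for Cd3e. With the covariate Cd3e in iNK was -0.02 and Ms4a1 in iILC1 0.01. Without control iNK replicate 1 and cKO iILC1 replicate 1, the libraries lowest on the first principal component and an alternative chosen after seeing the data, Cd3e in iNK was -0.12 and in iILC1 Ms4a1 was 0.1 and Igll1 0.07. That alternative gave 7 B-cell receptor and coreceptor genes higher in iNK. Between cell types in control, leaving out 1 library took Cd79a to -0.29, Cd79b to -0.06, Igkc to -0.06 and Pax5 to -0.19, and Pax5 was -0.72 with the covariate and -0.16 without the pair of libraries lowest on the first principal component. The cause of these moves was not tested. Groups of 3 and 4 libraries, few counts in the low groups and counts per gene without strand are the limits.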
